A study of Mus musculus with 24 samples.

Results

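The 7 genes described here encode the inhibitors of cyclin-dependent kinases: the INK4 genes Cdkn2a, Cdkn2b, Cdkn2c and Cdkn2d and the CIP/KIP genes Cdkn1a, Cdkn1b and Cdkn1c. They were taken by name, and all 7 were found among the 23234 genes of each of 2 tables of gene expression in mouse splenic B cells. Each value is an FPKM, that is, sequenced fragments normalised to transcript length and to the number of mapped fragments. The gene set was chosen by the FPKM of Cdkn2a and its relatives in these same DKO and CTL libraries, so their levels are given as a description, with the spread over libraries and no p-value. The calls that the fit over all genes makes on them are counted once, beside the share of all genes called, and support nothing.

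The study labelled 24 samples in 8 groups, of which 12 samples in 4 groups of 3 libraries are used; the other 12 samples were not analysed here. The groups are CD93- B cells labelled Tet2/Tet3-deficient (DKO) and CD93- B cells labelled control (CTL), and CD93+ B cells of the same 2 genotypes (DKO and CTL). The sample titles read Tet DKO for the deficient CD93- libraries and Tet KO for the deficient CD93+ libraries, and both are written DKO here. All were primary B cells isolated fresh from spleens of C57BL/6 mice, sorted by CD93, a surface protein of immature and transitional B cells that also appears on plasma cells. The alleles, the driver of the deletion, the age of the mice and the number of mice per library are not given in the sources used here. Tet2 and Tet3 are dioxygenases that oxidise 5-methylcytosine. Whole-gene FPKM counts exons outside a deleted part, so Tet2, at 8.15 to 9.94 FPKM in CD93- DKO and 6.36 to 8.79 FPKM in CD93- CTL libraries, checks neither label. Tet2 was at 1.80 to 3.56 FPKM in CD93+ DKO and 3.10 to 3.47 FPKM in CD93+ CTL libraries. Tet3 spanned 14.9 to 15.7 FPKM in CD93- DKO and 14.8 to 20.1 FPKM in CD93- CTL libraries, and 3.84 to 9.92 FPKM in CD93+ DKO and 12.1 to 14.1 FPKM in CD93+ CTL libraries.

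INK4 proteins bind Cdk4 and Cdk6 and keep D-type cyclins from activating them, which holds the retinoblastoma protein active and E2F target genes off. CIP/KIP proteins bind cyclin and kinase together, above all complexes of Cdk2 with cyclin E or A. Cdkn2a is unusual in encoding a pair of unrelated proteins from separate first exons. The downstream promoter gives p16Ink4a, an INK4 inhibitor, and the upstream promoter gives p19Arf, which binds Mdm2 and so stabilises p53. In most young mouse tissues the locus is kept silent by Polycomb complexes.

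The promoters of Cdkn2a and of its neighbour Cdkn2b are shown because Tet enzymes act on CG dinucleotides and because gene-level FPKM cannot tell the 2 Cdkn2a transcripts apart. The windows run from 250 to 51 bases before the annotated start, are read 5′ to 3′ on the minus strand and carry CG in capitals. They come from RefSeq on build GRCm38.p6, which is not the mm9 build of the expression tables. They lie at chr4:89294670-89294869 for the upstream Cdkn2a start, chr4:89282243-89282442 for the downstream Cdkn2a start and chr4:89311083-89311282 for Cdkn2b.
Cdkn2a upstream start (p19Arf): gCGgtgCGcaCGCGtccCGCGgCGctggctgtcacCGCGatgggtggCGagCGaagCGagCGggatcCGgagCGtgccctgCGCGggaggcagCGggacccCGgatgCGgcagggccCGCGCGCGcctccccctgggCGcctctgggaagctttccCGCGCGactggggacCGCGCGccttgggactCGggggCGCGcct
Cdkn2a downstream start (p16Ink4a): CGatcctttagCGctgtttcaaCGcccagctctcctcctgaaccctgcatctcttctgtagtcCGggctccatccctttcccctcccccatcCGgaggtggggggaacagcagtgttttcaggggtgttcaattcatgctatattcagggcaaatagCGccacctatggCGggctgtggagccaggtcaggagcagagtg
Cdkn2b start: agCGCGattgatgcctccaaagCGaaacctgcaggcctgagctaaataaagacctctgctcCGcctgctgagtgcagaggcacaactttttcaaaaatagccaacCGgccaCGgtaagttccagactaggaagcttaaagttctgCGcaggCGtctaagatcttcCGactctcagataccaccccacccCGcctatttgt

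The upstream Cdkn2a window held 34 CG in 200 bases, more than 99.2% of the 32841 windows of that length in the reference table, whose median was 4. The downstream Cdkn2a window held 7 CG, more than 61.7% of windows, and the Cdkn2b window held 10, more than 70.7%. Each Cdkn2a window contained 1 match to TTTNNCGC, a loose form of the E2F motif that allows any bases at NN. It was searched on both strands, and 3.27% of all windows contain it. The match read TTTCCCGC in the upstream window and TTTAGCGC in the downstream window. Neither contained GGGCGG, an Sp1-type motif present in 24.6% of windows, and the Cdkn2b window contained neither motif. Of the 7 genes, 6 had windows in the table, 9 windows in all. DNA methylation was not measured in these files, and a motif match is a description of letters only.

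Totals of FPKM ran over 424032 to 463987 in CD93- DKO and 342368 to 394709 in CD93- CTL libraries. CD93+ DKO libraries totalled 309359 to 597968 and CD93+ CTL libraries 523898 to 595984, with DKO replicate 3 the lowest of these 6. That library listed 1326 genes at 0, against 6311 and 8258 in the other CD93+ DKO libraries and 4039 to 7454 in the CD93+ CTL libraries. None of 10 housekeeping genes was at 0 in any library. Values rescaled to a common upper quartile within each table are therefore given beside the authors' values wherever they change a description. With the authors' scaling, limma on log2(FPKM + 1) called 21.5% of 10960 tested genes in CD93- cells at a Benjamini-Hochberg adjusted p under 0.05, 18.7% higher and 2.79% lower in DKO cells. The median log2 change of all tested genes, DKO minus CTL, was 0.11 in CD93- cells and -0.22 in CD93+ cells, and -0.08 and -0.01 after rescaling. In CD93+ cells 3.21% of 11250 genes were called, 1.67% higher and 1.54% lower, and after rescaling 20.7%, 11.4% higher and 9.34% lower. After rescaling, 40.9% were called in CD93- cells, 17.1% higher and 23.8% lower. The depth behind a value is unknown, since the tables hold no read counts. Nothing says that libraries of a group came from separate mice, so p-values rest on spread between these libraries only. In CD93+ cells with the authors' scaling, the fit took each gene's spread from genes of like expression, not from that gene's own libraries.

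B cell markers were high in all libraries. Cd79a, a subunit of the B cell receptor, was at 919 to 982 FPKM in CD93- DKO and 843 to 1049 FPKM in CD93- CTL libraries, and Ms4a1, the gene of the surface antigen CD20, was at 415 to 447 FPKM in CD93- DKO and 325 to 393 FPKM in CD93- CTL libraries. In CD93+ cells Cd79a was at 572 to 1199 FPKM in DKO and 1200.0 to 1589 FPKM in CTL libraries, and Ms4a1 at 121 to 279 FPKM in DKO and 249.5 to 340 FPKM in CTL libraries, with DKO replicate 3 lowest for both. The sums of 7 red cell markers moved with genotype, at 144 to 195 in CD93- DKO and 21.5 to 60.3 in CD93- CTL libraries, and at 2970 to 13280 in CD93+ DKO and 13040 to 56940 in CD93+ CTL libraries. Sums of 6 neutrophil markers were 427 to 1355 in CD93+ DKO and 1525 to 2135 in CD93+ CTL libraries, and 2.97 to 12.8 in CD93- DKO and 1.70 to 8.35 in CD93- CTL libraries. By limma 4 of 5 tested red cell markers rose in CD93- DKO cells (2 after rescaling) and 6 of 7 fell in CD93+ DKO cells (0 after rescaling). Of the neutrophil markers 0 of 6 were called in CD93+ cells (4 at an unadjusted p under 0.05), and 4 were called lower after rescaling. T cell, macrophage and NK cell marker sums overlapped between genotypes in both sorts. In CD93- DKO cells 3 of 7 T cell markers (Cd3d, Cd3g and Cd8a) and 2 of 3 tested macrophage markers (C1qb and Emr1) nevertheless rose, with either scaling. In CD93+ cells limma called 0 of 7 T cell markers (0 at an unadjusted p under 0.05) and 0 of 7 macrophage markers (2 at that p). The summed FPKM of the sorting marker Cd93 and of Fcer2a and Cr2, receptors of mature B cells, was 212 to 215 in CD93- DKO and 394 to 483 in CD93- CTL libraries, and 37.4 to 69.8 in CD93+ DKO and 91.8 to 104.5 in CD93+ CTL libraries. Fcer2a and Cr2 fell in DKO cells of both sorts, with either scaling. No marker of these lists was at 0 in all libraries of a table, and the part of these cells in the results was not tested. In bulk samples, fewer cells of a type and less RNA per cell cannot be told apart.

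Cdkn2a was the member that differed most between genotypes, and it was higher in every DKO library of both sorts. In CD93- cells Cdkn2a was at 8.20, 7.74 and 4.64 FPKM in DKO libraries, against 0.306 FPKM in CTL replicate 1 and a listed 0 in CTL replicates 2 and 3. In CD93+ cells it was at 17.6, 19.5 and 6.13 FPKM in DKO libraries, against 0.773, 0.568 and 0.164 FPKM in CTL libraries. No CTL library of either sort reached 1 FPKM, and the groups did not overlap. Every DKO library lay above every CTL library for 31.5% of all tested genes in CD93- cells and for 2.94% in CD93+ cells, and after rescaling for 21.4% and 20.9%. The difference on the log2(FPKM + 1) scale was 2.81 ± 0.26 (SE, n = 3 each) in CD93- cells and 3.24 ± 0.52 in CD93+ cells. After rescaling the differences were 2.70 and 3.39. The mean in CD93+ cells was 14.4 ± 7.22 FPKM in DKO and 0.502 ± 0.310 FPKM in CTL libraries (SD, n = 3 each), a ratio of 28.7. No ratio is given for CD93- cells because of the listed zeros. The spread among CD93+ DKO libraries came with DKO replicate 3, whose 6.13 FPKM became 10.5 after rescaling, beside 15.6 and 17.9 for the others. Leaving out each library in turn gave differences of 2.68 to 3.04 in CD93- cells and 2.96 to 3.72 in CD93+ cells.

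**Figure D1:**
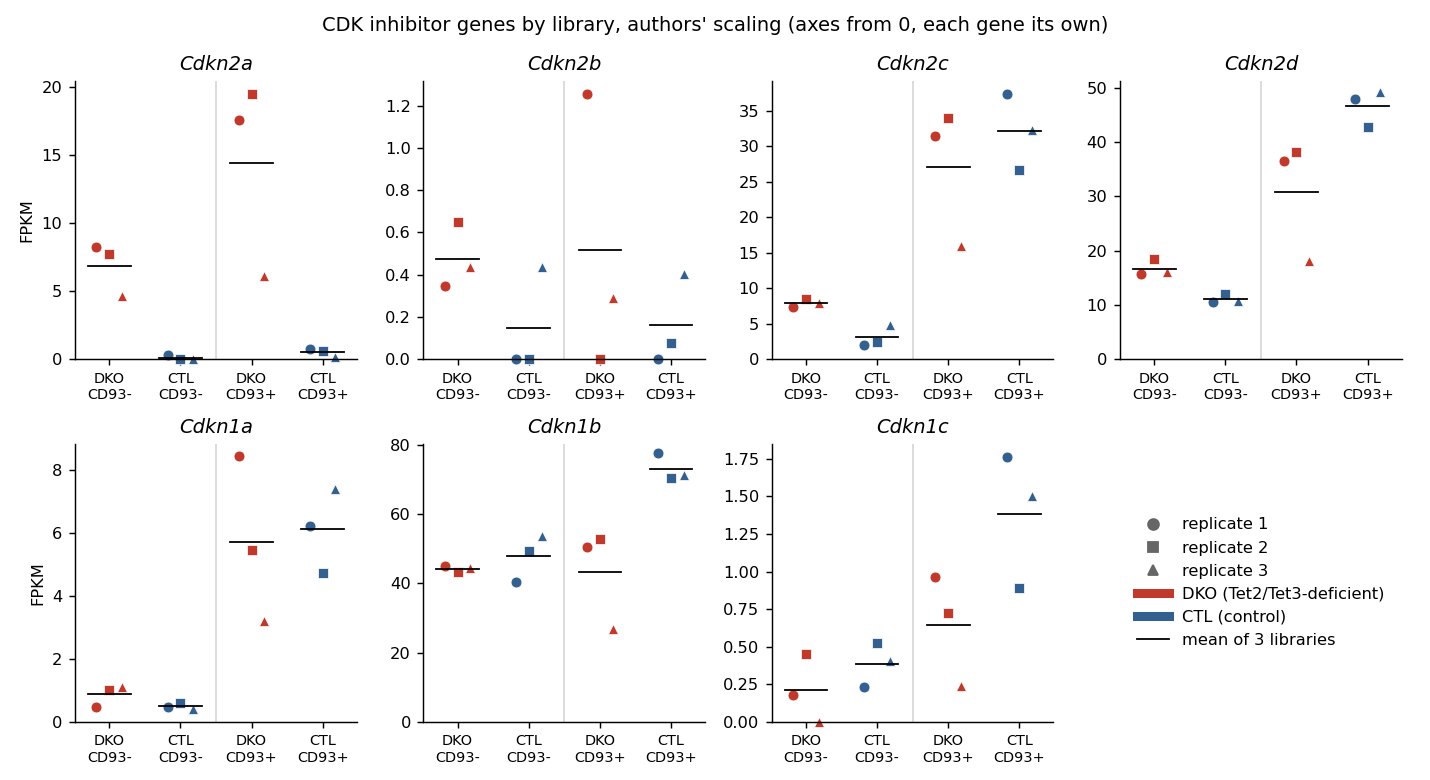
FPKM of the 7 inhibitor genes in each library with the authors' scaling, on linear axes that start at 0 and differ between genes, DKO left of CTL within each sort, with symbols for replicates and lines for the mean of 3 libraries. Cdkn2a lies at 4.64 to 19.5 FPKM in the 6 DKO libraries and under 1 FPKM in the 6 CTL libraries, while Cdkn1b is the highest member in every group.

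Cdkn2b, which encodes p15Ink4b and lies next to Cdkn2a, stayed low. It was at 0.345, 0.647 and 0.436 FPKM in CD93- DKO libraries, against a listed 0 in CTL replicates 1 and 2 and 0.435 FPKM in CTL replicate 3. In CD93+ cells it was at 1.25, 0 and 0.290 FPKM in DKO libraries and at 0, 0.0770 and 0.401 FPKM in CTL libraries. The ranges touched or overlapped in both sorts, only 1 of 12 libraries reached 1 FPKM, and the gene was not tested in either table.

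Some genes of the same region were listed for comparison with the locus. Mtap, a methionine salvage enzyme annotated on the far side of Cdkn2a from Cdkn2b, averaged 8.999 ± 0.168 FPKM in CD93- DKO and 8.68 ± 1.34 FPKM in CD93- CTL libraries (log2 change 0.06, limma adjusted p = 0.83). In CD93+ cells Mtap averaged 8.65 ± 2.13 FPKM in DKO and 7.60 ± 0.972 FPKM in CTL libraries (log2 change 0.15, limma adjusted p = 0.901). After rescaling, Mtap was called higher in CD93+ DKO cells by 0.37 (limma adjusted p = 0.0448). Klhl9, an adaptor of a ubiquitin ligase in the same region, was called in neither sort with the authors' scaling, and after rescaling it was lower in CD93- DKO cells by -0.46 (limma adjusted p = 0.019). Dmrta1, on the other side of Cdkn2b, was at or under 0.533 FPKM in every library. Of the 5 genes listed for the locus, Dmrta1, Ifna1 and Ifnb1 were too low to test.

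Cdkn2c encodes p18Ink4c, which in mice restrains B cell proliferation and is needed for functional plasma cells. In CD93- cells it was at 7.28, 8.53 and 7.84 FPKM in DKO libraries, against 1.97, 2.47 and 4.78 FPKM in CTL libraries. Every DKO library lay above every CTL library, as for 31.5% of all tested genes in CD93- cells (21.4% after rescaling). The means were 7.88 ± 0.626 FPKM in DKO and 3.07 ± 1.497 FPKM in CTL libraries (SD, n = 3 each), a ratio of 2.56. The log2 difference was 1.18 ± 0.30 (SE), and 1.01 after rescaling. Without CTL replicate 3, the highest control, it was 1.47. In CD93+ cells Cdkn2c was at 31.4, 34.0 and 15.9 FPKM in DKO libraries and at 37.4, 26.7 and 32.3 FPKM in CTL libraries, so the groups overlapped. The log2 difference there was -0.30 ± 0.36 (SE), and -0.06 after rescaling.

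Cdkn2d encodes p19Ink4d, an INK4 inhibitor whose level in cultured mouse cells changes over the cell cycle. It was at 15.6, 18.4 and 16.0 FPKM in CD93- DKO libraries, against 10.5, 12.05 and 10.8 FPKM in CD93- CTL libraries. The DKO libraries all lay above the CTL libraries, as for 31.5% of all tested genes in CD93- cells (21.4% after rescaling). The log2 difference was 0.55 ± 0.09 (SE), or 0.34 after rescaling. In CD93+ cells it was at 36.5, 38.1 and 18 FPKM in DKO libraries, against 47.9, 42.7 and 49.3 FPKM in CTL libraries. Here every DKO library was below every CTL library, as for 19% of all tested genes in CD93+ cells (22% after rescaling), with a log2 difference of -0.65 ± 0.34 (SE). After rescaling, CD93+ Cdkn2d was at 32.3, 35.1 and 30.8 in DKO libraries and at 44.6, 43.6 and 43.2 in CTL libraries, a difference of -0.41. The sign of the Cdkn2d difference was thus opposite in the 2 sorts with either scaling, and the difference between sorts was not tested because the 2 tables were scaled separately.

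Cdkn1a encodes p21, the best known p53 target among the inhibitors. It was at 0.481, 1.02 and 1.11 FPKM in CD93- DKO libraries and at 0.464, 0.609 and 0.405 FPKM in CD93- CTL libraries, and the ranges overlapped. In CD93+ cells it was at 8.45, 5.47 and 3.22 FPKM in DKO libraries and at 6.24, 4.75 and 7.40 FPKM in CTL libraries. The CD93+ groups overlapped too, with a log2 difference of -0.15 ± 0.37 (SE) that was 0.05 after rescaling.

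Cdkn1b encodes p27, the inhibitor that holds resting lymphocytes out of the cycle. It was the most abundant member in all 4 groups. In CD93- cells it was at 45.1, 43.2 and 44.4 FPKM in DKO libraries, against 40.3, 49.3 and 53.8 FPKM in CTL libraries, overlapping with a log2 difference of -0.10 ± 0.12 (SE). After rescaling the CD93- values were 42.7, 40.4 and 40.4 in DKO libraries and 51.2, 48.3 and 55.6 in CTL libraries, which no longer overlapped (-0.32), as for 33.3% of all tested genes, against 7.43% with the authors' scaling. In CD93+ cells Cdkn1b was at 50.7, 52.9 and 26.8 FPKM in DKO libraries, against 77.9, 70.4 and 71.4 FPKM in CTL libraries. The log2 difference in CD93+ cells was -0.80 ± 0.31 (SE). DKO replicate 3 was again the lowest, and after rescaling the CD93+ means were 46.4 ± 1.97 in DKO and 68.9 ± 5.56 in CTL libraries, a log2 difference of -0.56. Every CD93+ DKO library thus lay below every CD93+ CTL library with either scaling, as for 19% of all tested genes (22% after rescaling). In CD93- cells the groups separated only after rescaling.

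Cdkn1c encodes p57, the inhibitor transcribed from an imprinted locus. It was at 0.181, 0.453 and a listed 0 FPKM in CD93- DKO libraries and at 0.233, 0.524 and 0.406 FPKM in CD93- CTL libraries. In CD93+ cells it was at 0.965, 0.723 and 0.236 FPKM in DKO libraries and at 1.76, 0.888 and 1.51 FPKM in CTL libraries. The groups overlapped in both sorts with the authors' scaling. After rescaling the CD93+ DKO libraries, at 0.404 to 0.853, lay below the CD93+ CTL libraries, at 0.907 to 1.64. Such a separation held for 22% of all tested genes, and Cdkn1c was too low to test.

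**Figure D2:**
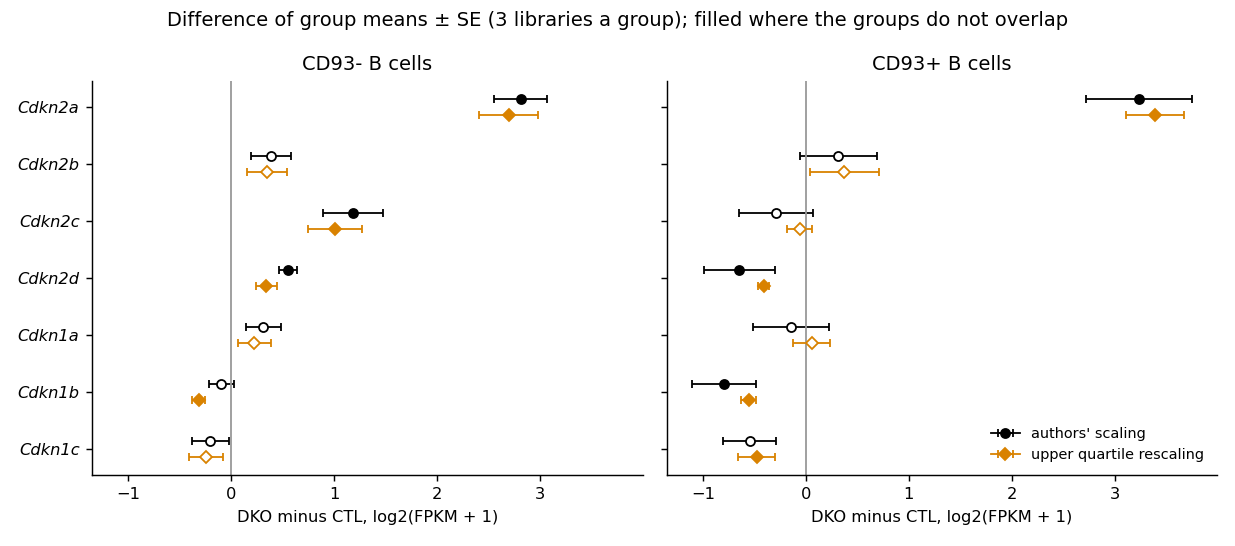
Difference of group means on the log2(FPKM + 1) scale, DKO minus CTL, for each inhibitor gene and sort, with the authors' scaling and after upper quartile rescaling; bars are standard errors from 3 libraries per group, and filled symbols mark groups that do not overlap. Cdkn2a stands at 2.70 to 3.39, Cdkn2c at 1.01 to 1.18 in CD93- cells, and Cdkn2d changes sign between the sorts.

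A gene was tested where 3 or more libraries reached 1 FPKM, which was so for 4 of the 7 members in CD93- cells and for 5 of 7 in CD93+ cells. Cdkn2a passed through its 3 DKO libraries alone in each table, and Cdkn1a, Cdkn1c and Cdkn2b in CD93- cells and Cdkn1c and Cdkn2b in CD93+ cells did not pass. In CD93- cells 3 members, Cdkn2a, Cdkn2c and Cdkn2d, were called higher, where 18.7% of all tested genes were. After rescaling Cdkn1b was also called lower there, where 23.8% were. In CD93+ cells Cdkn2a was called higher, where 1.67% were, and after rescaling Cdkn2a was called higher and Cdkn1b and Cdkn2d lower, where 11.4% and 9.34% were. Because these contrasts chose the members, nothing is read from the counts. Nor is anything read from the groups that did not overlap.

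The order of levels, which FPKM allows because it is per length, differed between groups mainly in the place of Cdkn2a. In CD93- DKO cells Cdkn1b was highest, then Cdkn2d, then Cdkn2c and Cdkn2a with overlapping ranges, then Cdkn1a, Cdkn2b and Cdkn1c, whose neighbouring ranges overlapped. In CD93- CTL cells Cdkn1b, Cdkn2d and Cdkn2c kept this order without overlap and Cdkn2a was among the 4 lowest with Cdkn1a, Cdkn1c and Cdkn2b. In CD93+ DKO cells Cdkn1b, Cdkn2d, Cdkn2c, Cdkn2a and Cdkn1a followed each other with overlapping neighbours, and Cdkn1c and Cdkn2b lay lower. The overlaps came with the low values of DKO replicate 3, and each library of this group held Cdkn1b to Cdkn1a in that order. After rescaling only Cdkn2d, at 30.8 to 35.1, and Cdkn2c, at 27.2 to 31.2, still overlapped among them. In CD93+ CTL cells Cdkn1b, Cdkn2d, Cdkn2c, Cdkn1a and Cdkn1c were in this order without overlap, with Cdkn2a and Cdkn2b below them.

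Shares within a library do not depend on its scaling. The INK4 genes made up 40.8%, 44.2% and 38.9% of the summed FPKM of the 7 genes in CD93- DKO libraries, against 23.7%, 22.3% and 22.6% in CD93- CTL libraries. In CD93+ cells the INK4 share was 59.1%, 60.8% and 57.1% in DKO libraries, against 50.1%, 48.0% and 50.6% in CTL libraries. The INK4 share, with Cdkn2a counted in it, was thus higher in each DKO library than in any CTL library of its sort. The values of these libraries chose the members, so nothing is read from the separation. The part of p19Arf in the Cdkn2a value is unknown, so the share is not read as more INK4 inhibitor. Cdkn2a alone made up 10.6%, 9.67% and 6.23% in CD93- DKO libraries, against 0.569% and a listed 0 in the others of the CD93- CTL group. In CD93+ cells Cdkn2a made up 11.98%, 12.9% and 8.68% in DKO libraries, against 0.450%, 0.389% and 0.101% in CTL libraries.

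**Figure D3:**
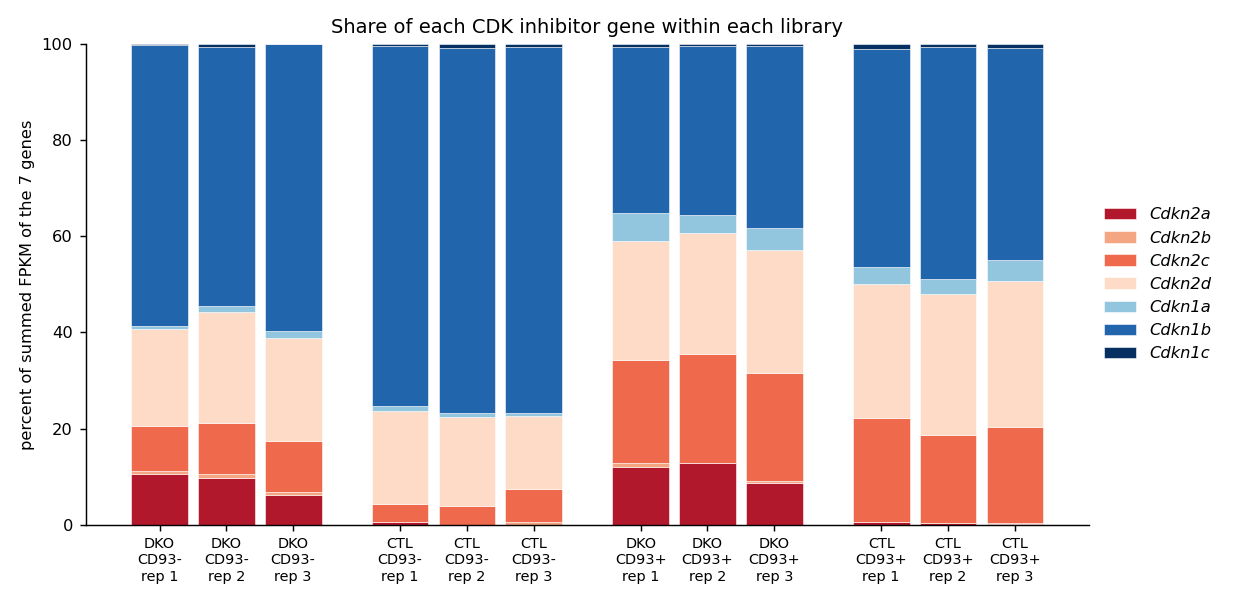
Share of each inhibitor gene in the summed FPKM of the 7 genes, in percent, one stacked bar per library, DKO left of CTL in each sort. The Cdkn2a segment is 6.23% to 12.9% in DKO libraries and at most 0.569% in CTL libraries, and the Cdkn1b segment is smaller in each DKO library than in the CTL libraries of the same sort.

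Set against Cdk4 and Cdk6, the kinases that INK4 proteins bind, the summed INK4 genes were compared with Cdkn2a included. The ratio of summed FPKM was 0.374, 0.419 and 0.313 in CD93- DKO libraries, against 0.275, 0.2495 and 0.312 in CD93- CTL libraries. DKO replicate 3 and CTL replicate 3 were almost level. Cdkn2a made up 26.1%, 21.9% and 16.0% of the INK4 sum in these DKO libraries and at most 2.40% in these CTL libraries. Gene-level FPKM cannot tell how much of the Cdkn2a value is p19Arf, which is not an INK4 inhibitor. The higher CD93- ratio is therefore not read as more INK4 inhibitor per kinase. In CD93+ cells this ratio was 0.529, 0.517 and 0.454 in DKO libraries, below the 0.651, 0.618 and 0.611 of CTL libraries. Cdkn1b relative to Cdk4 was lower in DKO libraries of both sorts. It was 0.576, 0.550 and 0.519 in CD93- DKO libraries, against 0.965, 0.949 and 1.21 in CD93- CTL libraries. In CD93+ cells it was 0.322, 0.308 and 0.317 in DKO libraries, against 0.611, 0.660 and 0.554 in CTL libraries. In CD93- cells Cdk4 averaged 80.8 FPKM in DKO and 46.1 FPKM in CTL libraries, while the Cdkn1b ranges overlapped with the authors' scaling. The lower CD93- ratio is therefore not read as a lower Cdkn1b level. No share over all genes was computed for these ratios, and nothing is read from their separation.

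The kinases, cyclins and E2F genes around the inhibitors were next compared between genotypes, with limma across all tested genes. Counts in CD93- cells with the authors' scaling are to be read against the 18.7% of all tested genes called higher and the 2.79% called lower. Counts after rescaling are to be read against 17.1% higher and 23.8% lower in CD93- cells. In CD93+ cells the rescaled shares were 11.4% higher and 9.34% lower. Of 4 cyclin-dependent kinases, 2 rose and none fell in CD93- DKO cells, with a median log2 change of 0.44 against 0.11 for all genes. Cdk1, the mitotic kinase, averaged 5.40 ± 0.473 FPKM in DKO and 1.14 ± 0.226 FPKM in CTL libraries (log2 change 1.59, adjusted p = 1.33e-05). Cdk4, the INK4 target, averaged 80.8 ± 4.16 FPKM in DKO and 46.1 ± 5.29 FPKM in CTL libraries (log2 change 0.80, adjusted p = 9.54e-04). Cdk6 and Cdk2 were not called, at log2 changes of 0.08 and 0.09. In CD93+ cells limma called 0 kinases in the authors' values (0 also by unadjusted p under 0.05), and after rescaling Cdk4 was called higher by 0.37 (adjusted p = 0.0163).

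Of 6 cyclins of G1 and S phase, 5 rose in CD93- DKO cells, with a median log2 change of 0.67. The S phase cyclin Ccna2 averaged 17.1 ± 1.02 FPKM in DKO and 3.88 ± 0.861 FPKM in CTL libraries (log2 change 1.91, limma adjusted p = 4.25e-06). Ccnd2, a D-type partner of Cdk4 and Cdk6, averaged 41.8 ± 1.40 FPKM in DKO and 26.2 ± 1.40 FPKM in CTL libraries (log2 change 0.65, limma adjusted p = 0.00215). Ccne2, an E-type partner of Cdk2, had a log2 change of 0.75 (limma adjusted p = 0.0043). Its relative Ccne1 had a change of 0.70 (limma adjusted p = 0.0182), a call lost without CTL replicate 1 (adjusted p = 0.0508) or DKO replicate 3 (adjusted p = 0.0578). Ccnd1 was not called (-0.28), and after rescaling it was called lower (-0.47, limma adjusted p = 0.0121). In CD93+ cells 0 cyclins were called (0 at an unadjusted p under 0.05). After rescaling Ccnd2 was called higher by 0.71 (limma adjusted p = 0.00533), and 2 cyclins were called higher without DKO replicate 3.

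Of 13 pocket protein and E2F family genes, 5 rose and none fell in CD93- DKO cells. E2f8 and E2f7, the repressor E2Fs, had log2 changes of 1.47 (limma adjusted p = 2.01e-05) and 0.97 (limma adjusted p = 0.00122). Tfdp1, the dimer partner of E2F proteins, averaged 38.6 ± 3.25 FPKM in DKO and 16.8 ± 1.41 FPKM in CTL libraries (log2 change 1.16, limma adjusted p = 5.62e-05), and E2f1, an activator, changed by 0.68 (limma adjusted p = 0.0023). The count was 8 without CTL replicate 2, and after rescaling it was 5 higher and 2 lower, the pocket protein genes Rb1 and Rbl2. In CD93+ cells the 1 call was Tfdp2, another dimer partner, which fell. It averaged 8.71 ± 3.02 FPKM in DKO and 22.9 ± 8.37 FPKM in CTL libraries (log2 change -1.28, limma adjusted p = 0.0151). That call was lost after rescaling (adjusted p = 0.0519), with the replicate number as a block (adjusted p = 0.158), with no filter or no trend, and without CTL replicates 1 or 2 or DKO replicates 2 or 3 (adjusted p = 0.0528 to 0.582). Tfdp2 was at 10.7, 10.2 and 5.24 FPKM in CD93+ DKO libraries and at 27.9, 27.6 and 13.3 FPKM in CD93+ CTL libraries. The red cell gene Hba-a1 was at 6293, 6092 and 1493 FPKM in CD93+ DKO libraries and at 28810, 24620 and 5870 FPKM in CD93+ CTL libraries, and the part of red cells in the Tfdp2 values was not tested. After rescaling Tfdp1 was called higher by 0.38 and E2f2 lower by -0.63 in CD93+ cells.

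Proliferation markers were also compared between genotypes within each sort. In CD93- cells 12 of 13 rose in DKO cells, with a median log2 change of 1.73, and the S and M phase genes Mki67, Ccnb2, Top2a and Rrm2 had the largest changes. Mki67 averaged 33.8 ± 1.76 FPKM in DKO and 6.26 ± 1.60 FPKM in CTL libraries (log2 change 2.28, limma adjusted p = 1.77e-06). In CD93+ cells limma called 0 of 13 (1 at an unadjusted p under 0.05), with a median of -0.05 against -0.22 for all genes, and after rescaling the replication licensing genes Mcm2, Mcm5 and Mcm6 were called higher, 2 genes of the list when DKO replicate 3 was left out of the rescaled values. In CD93- cells the members Cdkn2c and Cdkn2d were higher in DKO than in CTL libraries, as were 12 of the 13 proliferation markers. The part of proliferation in the levels of Cdkn2c and Cdkn2d was not tested.

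The p53 list bears on p19Arf, whose known action is through p53. Of 24 listed genes 23 were measured. In CD93- cells 5 of the 19 tested rose and none fell, where 18.7% of all tested genes rose, with a median log2 change of 0.32 against 0.11 for all genes. The count was 3 without DKO replicate 3, which is near that background share. Fas, a death receptor, averaged 7.59 ± 0.441 FPKM in DKO and 2.43 ± 1.23 FPKM in CTL libraries (log2 change 1.38, limma adjusted p = 5.75e-04). Rps27l, a ribosomal protein-like p53 target, averaged 93.0 ± 10.6 FPKM in DKO and 42.7 ± 3.68 FPKM in CTL libraries (log2 change 1.10, limma adjusted p = 1.06e-04). Ccng1, a cyclin G gene, changed by 0.66 (limma adjusted p = 0.00258). Trp53inp1, a stress-induced cofactor, changed by 0.55 (limma adjusted p = 0.0137), a call lost without DKO replicate 3 (adjusted p = 0.0572). Trp53 itself (0.04) and Mdm2 (0.15) were not called. After rescaling, 5 were called higher and 4 lower, with Trp53, Sesn1 and Gadd45a among those lower. Across all tested genes 17.1% were then called higher and 23.8% lower.

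In CD93+ cells 1 of the 21 tested p53 genes fell and none rose. Gadd45a, a stress response gene, averaged 17.7 ± 6.91 FPKM in DKO and 41.2 ± 11.7 FPKM in CTL libraries (log2 change -1.21, limma adjusted p = 0.0476). The call was lost when any library but DKO replicate 1 was left out (adjusted p = 0.0737 to 0.771), with the replicate block (adjusted p = 0.334), with no trend, with either other filter and with a pseudocount of 0.1. After rescaling the adjusted p was 0.0383, and 0.0852 after rescaling without DKO replicate 3. After rescaling Fas, Rps27l and Ccng1 were called higher, by 0.98, 0.81 and 0.63, and Sesn1 and Btg2 lower as well as Gadd45a. Without DKO replicate 3, and with the authors' scaling, 3 genes of the list were called higher.

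Of 20 Polycomb and other regulators of the Cdkn2a locus, 1 rose and 4 fell in CD93- DKO cells, with a median log2 change of -0.05 against 0.11 for all genes. Ezh2, the catalytic subunit of Polycomb repressive complex 2, averaged 27.8 ± 0.675 FPKM in DKO and 10.8 ± 0.738 FPKM in CTL libraries (log2 change 1.29, limma adjusted p = 1.5e-05). Ets1 and Ets2, known as activators of p16Ink4a in human fibroblasts, fell by 0.80 (limma adjusted p = 0.00111) and 0.97 (limma adjusted p = 0.00113). Cbx7, a Polycomb repressive complex 1 subunit, averaged 45.8 ± 3.15 FPKM in DKO and 66.3 ± 10.2 FPKM in CTL libraries (log2 change -0.51, limma adjusted p = 0.0226). That call was lost without CTL replicates 2 or 3 or DKO replicates 1 or 2 (adjusted p = 0.0505 to 0.104). The number that fell was 2 without CTL replicate 3, DKO replicate 1 or DKO replicate 2, 7 without CTL replicate 1, and 10 after rescaling. Rescaling raised the share of all tested genes called lower in CD93- cells from 2.79% to 23.8%. Bmi1, the classical repressor of the locus, was not called with the authors' scaling (0.04) and was called lower after rescaling (-0.17, limma adjusted p = 0.0313).

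In CD93+ cells limma called 0 of the 20 in the authors' values (6 had an unadjusted p under 0.05), and Ezh2 was at 68.3 ± 17.6 FPKM in DKO and 78.7 ± 8.21 FPKM in CTL libraries. After rescaling 7 were called lower and none higher, among them Ets1 (-0.67, limma adjusted p = 0.00192), Ets2 (-0.64, limma adjusted p = 0.00922), the histone demethylase gene Kdm6b (-0.66, limma adjusted p = 0.0114) and Cbx7 (-0.57, limma adjusted p = 0.0148). The rescaled share called lower among all tested genes was 9.34% in CD93+ cells. Of this list 3 genes were called lower without DKO replicate 3, and 6 when that library was left out of the rescaled values.

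The genes of p27 turnover and the FoxO factors that drive Cdkn1b gave 2 called genes of 10 in CD93- cells, both higher, a share near the 18.7% of all tested genes. Cks1b, a cofactor of the Skp2 ligase that marks p27 for degradation, averaged 28.7 ± 4.93 FPKM in DKO and 6.87 ± 0.540 FPKM in CTL libraries (log2 change 1.91, limma adjusted p = 2.97e-06). Its relative Cks2 changed by 1.06 (limma adjusted p = 1.34e-04), and Skp2 was not called (0.46, limma adjusted p = 0.0906). The count was 5 without CTL replicate 2. Foxo1, Foxo3 and Foxo4 were not called with the authors' scaling, and after rescaling all 3 were called lower in both sorts, 2 of them in CD93+ cells when DKO replicate 3 was left out as well. With the authors' scaling 0 of the 10 genes were called in CD93+ cells (2 at an unadjusted p under 0.05), and 1 without DKO replicate 1. The rescaled changes of Foxo1, Foxo3 and Foxo4 were -0.28, -0.40 and -0.54 in CD93- cells and -0.53, -0.81 and -0.67 in CD93+ cells. After rescaling 23.8% of all tested genes were called lower in CD93- cells and 9.34% in CD93+ cells. The rescaled changes of Cdkn1b were -0.32 and -0.56, and the part of FoxO factors in its level was not tested.

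Of 10 quiescence and antiproliferative factors, 3 fell and none rose in CD93- DKO cells, with a median log2 change of -0.17. Pdcd4, an inhibitor of translation initiation, averaged 35.7 ± 1.49 FPKM in DKO and 74.1 ± 6.35 FPKM in CTL libraries (log2 change -1.03, limma adjusted p = 1.02e-04). Klf4, a transcription factor of resting B cells, changed by -0.59 (limma adjusted p = 0.0329), and Tsc22d3, a glucocorticoid-induced leucine zipper, by -0.56 (limma adjusted p = 0.0157). The Klf4 call was lost without CTL replicates 2 or 3 or DKO replicates 2 or 3 (adjusted p = 0.0634 to 0.113), and the Tsc22d3 call without DKO replicates 2 or 3 (adjusted p = 0.0504 and 0.0538). The number that fell was 6 without CTL replicate 1 and 9 after rescaling, where 23.8% of all tested genes were called lower. In CD93+ cells limma called 0 of 10 (4 at an unadjusted p under 0.05, and 2 called lower without DKO replicate 3), with a median of -0.68 against -0.22 for all genes. After rescaling 6 were called lower, where 9.34% of all tested genes were, with Pdcd4 changed by -0.66 (limma adjusted p = 0.00411).

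**Figure D4:**
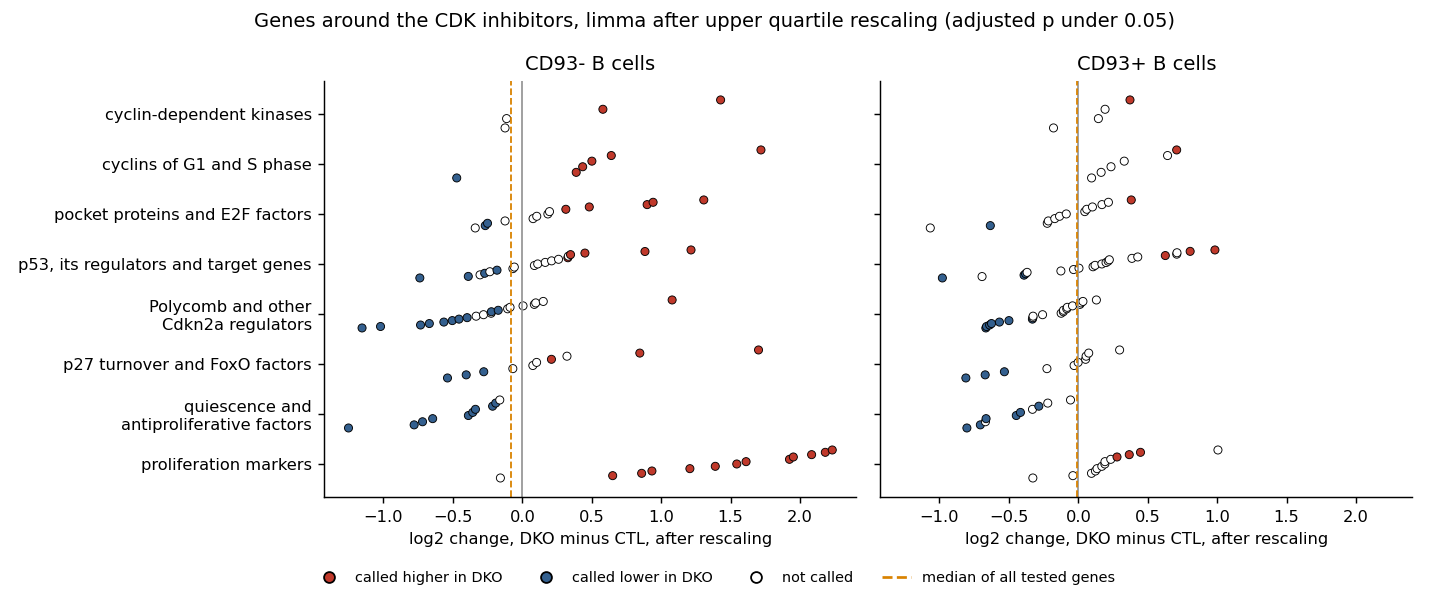
Log2 change, DKO minus CTL, of each gene of the 8 lists around the inhibitors after upper quartile rescaling, one point per tested gene, filled where limma called it, with the median of all tested genes as a dashed line. Most cyclin and proliferation genes lie right of the median in CD93- cells (5 of 6 and 12 of 13 called higher), and the called quiescence genes lie left of it in both sorts (9 and 6 called lower). Of all tested genes, 17.1% were called higher and 23.8% lower in CD93- cells, and 11.4% and 9.34% in CD93+ cells.

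Plasma cell genes are given because plasma cells carry CD93 and because Cdkn2c acts in them. Of 5 measured genes 3 rose in DKO cells of each sort: Igj, the joining chain, by 4.63 in CD93- and 4.68 in CD93+ cells, Prdm1 by 1.37 and 1.47, and Xbp1 by 1.23 and 1.90. The limma adjusted p was at most 7.56e-05 in CD93- cells and 2.68e-04 in CD93+ cells, and the CD93+ Xbp1 call was lost without CTL replicate 1 (adjusted p = 0.0526) or CTL replicate 2 (adjusted p = 0.0565). With no filter the CD93+ calls of Prdm1 (adjusted p = 0.166) and Xbp1 (adjusted p = 0.117) were lost. Sdc1, a plasma cell surface proteoglycan, was called in neither sort, and Irf4, a transcription factor, was called only after rescaling, lower in CD93+ DKO cells (-0.27, limma adjusted p = 0.0294). The part of plasma cells in the Cdkn2a and Cdkn2c levels was not tested.

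The genes whose pattern over the 12 libraries was most like that of each member were found by Pearson r after each table was standardised, among 10445 other genes tested in both tables. These are descriptions, since libraries share their scaling and genotype. For Cdkn2a they were Ryk, Spon1, Serpina3f, Gm600 and Gbp6, with r of 0.98 to 0.99. Ryk, a Wnt receptor, spanned 3.39 to 4.16 FPKM in CD93- DKO and 0.226 to 0.486 FPKM in CD93- CTL libraries, and Spon1, a secreted matrix protein, 3.57 to 7.23 FPKM in CD93+ DKO and 0.0200 to 0.161 FPKM in CD93+ CTL libraries. After rescaling the first 5 were Fscn1, Syngr2, Gusb, 5133401N09Rik and Serpina3g, none of them in the first set. For Cdkn1b the most similar gene was Cat, the catalase gene, with either scaling (r = 0.99). Cat spanned 28.3 to 55.8 FPKM in CD93+ DKO and 70.9 to 83.9 FPKM in CD93+ CTL libraries. Others near the top for Cdkn1b were 9130019O22Rik, Zfp362 and Fam160a2 (r = 0.97 to 0.98), none of them among the first 5 after rescaling. For Cdkn2c they were Tmem183a, Zfp281, 5930416I19Rik, Dynlt3 and Ttk (r = 0.97 to 0.98), of which Tmem183a and Zfp281 stayed among the first 5 after rescaling at r of 0.83 and 0.87. For Cdkn2d they were Nsg2, Pppde2, Pafah1b3, Pim1 and Rabl5 (r = 0.97 to 0.99), of which Pppde2 stayed at r of 0.92. Between members, Cdkn2c and Cdkn2d were the most alike (r = 0.88, and 0.53 after rescaling), and Cdkn1b ran against Cdkn2a (r = -0.51, and -0.91 after rescaling).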

How the data were processed

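RNA of 12 libraries was analysed, 3 per group, from 2 tables of gene-level FPKM values deposited by the authors. Per the submitters' processing notes, Bowtie2 2.1.0, TopHat2 2.0.8, Cufflinks 2.1.1 and build mm9 were used, and per the labels' protocols the libraries came from total RNA with a strand-specific kit. How FPKM were scaled between libraries is not given in the sources used here, and the tables were treated as scaled separately, so that no test runs across them. The second table held 6 further value columns that repeat those used and were left unused. Rows without a gene name (2 and 1) were dropped, and 25 names in the form of dates were kept but not matched to a gene.

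Genes that reached 1 FPKM in 3 or more libraries were fitted, each table alone, with limma 3.58.1 in R 4.3.3 on log2(FPKM + 1), with a mean-variance trend, DKO against CTL, two-sided, with Benjamini-Hochberg adjustment over all tested genes and a threshold of 0.05. The pseudocount understates changes of low genes. In CD93+ cells DKO replicate 3 has low values throughout, and the fit gave genes of like expression nearly the same spread, so values rescaled to a common upper quartile (percentile 75 of the tested genes) are printed beside it. The script was tested on simulated data. Read depth is unknown and no counting interval can be given. Fold changes are of summed transcripts of a gene.

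The members and gene lists were chosen with earlier results of these data known. Of each list the text names up to 4 called genes with the largest change, for each well expressed member the 5 genes most like it, and other list genes where they bear on a member, chosen after their values were seen. One gene of the likeness lists and one marker sum are not reported here. Alternatives were pseudocounts of 0.1 and 5, no filter, a filter of 5 FPKM, upper quartile rescaling, no trend, a replicate block and leaving out each library; rescaling without CD93+ DKO replicate 3 was added after seeing the data. Promoter windows came from RefSeq GRCm38.p6 and were used for sequence only.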

Additional observations from a re-analysis of the deposited data

Results flagged for a closer look

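The difference of Cdkn2d between genotypes had opposite signs in the 2 sorts, with no library out of place. It was 0.55 on the log2(FPKM + 1) scale in CD93- cells, where every DKO library lay above every CTL library, and -0.65 in CD93+ cells, where every DKO library lay below every CTL library. The same held after upper quartile rescaling, at 0.34 and -0.41. Of all tested genes, 31.5% lay wholly above control in CD93- cells and 19% wholly below in CD93+ cells, 21.4% and 22% after rescaling. The median change of all tested genes was 0.11 in CD93- and -0.22 in CD93+ cells, and -0.08 and -0.01 after rescaling. The values of these libraries chose the member, so nothing is read from the separation. The difference between the sorts was not tested, because their values were scaled in separate tables.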

How the results depend on the processing

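Of 64 results for 32 named genes in both sorts, 35 were called, and no call changed sign. Of the results not called, 12 changed sign under some alternative, 8 of them after upper quartile rescaling, all in CD93+ cells. Of the 35 calls, 8 were lost with no filter, 6 without DKO replicate 3, 5 without DKO replicate 2 and 5 without CTL replicate 2, 4 without CTL replicate 1, 3 without CTL replicate 3, 2 each with no trend and the replicate block, and 1 each after rescaling, with a filter of 5 FPKM, with a pseudocount of 0.1 and without DKO replicate 1. With the filter of 5 FPKM 29 calls stayed, and the calls besides these and the 1 lost were of genes too low to test. In CD93- cells the 2045 genes called higher became 1249 to 2546 when single libraries were left out, lowest without DKO replicate 3. The 306 called lower became 184 with no filter, 2609 after upper quartile rescaling and 181 to 1121 without single libraries: 1121 without CTL replicate 1, which has the lowest FPKM total of the CD93- libraries, 181 without DKO replicate 3, 194 without DKO replicate 2 and 202 without CTL replicate 3. In CD93+ cells the 188 called higher and 173 called lower became 11 and 5 with no filter, 73 and 95 with a filter of 5 FPKM, 1280 and 1051 after rescaling, 106 and 82 with no trend, and 954 and 674 after rescaling without DKO replicate 3. Without single libraries they spanned 103 to 539 higher and 60 to 224 lower, with 539 higher without DKO replicate 3, 103 and 60 without CTL replicate 1, and 119 and 70 without CTL replicate 2. The cause was not tested.

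With the replicate number as a block, 2435 genes were higher and 439 lower in CD93- cells, and 138 higher and 99 lower in CD93+ cells. The deviations of same-numbered libraries from their group means had r of 0.02, -0.11 and -0.09 in CD93- cells and 0.17, -0.11 and -0.14 in CD93+ cells. With 3 libraries per group these values cannot decide whether the numbers pair samples, and the sample titles do not say. Not every library correlated best with its own number.

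For Cdkn2a, pseudocounts of 0.1 and 5 gave differences of 5.40 and 1.20 in CD93- cells and 4.59 and 1.74 in CD93+ cells. Without single libraries the differences spanned -0.49 to 0.04 for Cdkn2c and -0.43 to 0.15 for Cdkn1a in CD93+ cells, positive for both without DKO replicate 3. They spanned 0.48 to 0.60 in CD93- and -0.83 to -0.31 in CD93+ cells for Cdkn2d, and -0.22 to -0.01 and -0.97 to -0.49 for Cdkn1b. Levels under 1 FPKM limit what can be said of Cdkn2b, Cdkn1c and CD93- Cdkn1a.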
